A study of Mus musculus with 10 samples.

Results

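The main histone gene cluster of the mouse lies on chromosome 13, and the stretch described here runs from 21.6 to 24 Mb on the mm9 build and is 2.4 Mb long. All peaks of the 10 deposited peak lists that overlapped it by at least 1 bp were taken, with no use of their scores. They were 506 of 543779 peaks in the series. The lists come from chromatin immunoprecipitation followed by sequencing (ChIP-seq) of R1E mouse embryonic stem cells, of a mixed C57BL/6X129Sv background and under 20 passages per the labels, either given 0.5 uM Adriamycin for 8 h or left untreated. All cells were grown in serum with leukemia inhibitory factor. The 5 targets were trimethylated lysine 4, dimethylated lysine 79 and trimethylated lysine 27 of histone H3 (H3K4me3, H3K79me2, H3K27me3), RNA polymerase II (Pol II) and the RNA-binding protein hnRNP L. Each target had 1 library per condition, so no test of the treatment was possible and no difference between conditions has a replicate check. Intervals in parentheses are exact 95% Clopper-Pearson intervals of shares of peaks or regions. They cover counting error only, not the spread between cultures.

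Histone genes of this kind are transcribed when DNA is copied, and their short messages lack introns and usually end in a stem-loop in place of a poly(A) tail. The proteins are the core histones H2A, H2B, H3 and H4, which form the nucleosome, and the linker histone H1, which binds DNA between nucleosomes. H3K4me3 marks promoters, H3K79me2 is laid down by DOT1L over the first part of transcribed genes, and H3K27me3 marks genes held silent by Polycomb. Adriamycin (doxorubicin) traps topoisomerase II on DNA and breaks it. The peaks are on mm9 and the gene table at hand is on GRCm38.p6, so no peak was assigned to a gene, and whether each histone gene lies inside the bounds could not be checked on the files' build. In the gene order of that table, between the neighbours Olfr1359 and Scgn, stand 257 genes. They include 56 histone genes (6 of H1, 15 of H2A, 15 of H2B, 9 of H3 and 11 of H4), of which 2 are pseudogenes, 79 tRNA genes and 79 vomeronasal receptor genes. The vomeronasal receptor genes separate 24 histone and 34 tRNA genes on one side from 32 histone and 45 tRNA genes on the other, and 0 histone genes stand among them.

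The promoters of 5 of these genes, 1 for each histone family, are shown because the strongest Pol II and H3K4me3 peaks of the region are described next, and because sequence elements differ between the families. Each is the 150 bases before the start of the gene, from RefSeq on GRCm38.p6, 5′ to 3′ on the gene's strand. The coordinates are of that build and not of the peaks. For each family the gene with most matched elements was taken. Capitals mark 4 elements searched on both strands: TATAAA (the TATA box, bound by TBP), CCAAT (read ATTGG on the other strand), the octamer ATTTGCAT (ATGCAAAT on the other strand, bound by Oct factors) and AAACACA (known from H1 genes). None of the 4 strings is contained in another.

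H1f5, histone H1, chr13:21780626-21780775, minus strand: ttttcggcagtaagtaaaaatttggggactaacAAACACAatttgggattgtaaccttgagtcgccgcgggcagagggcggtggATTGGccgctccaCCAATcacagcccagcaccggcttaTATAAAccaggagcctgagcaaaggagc
H2ac4, histone H2A, chr13:23750938-23751087, plus strand: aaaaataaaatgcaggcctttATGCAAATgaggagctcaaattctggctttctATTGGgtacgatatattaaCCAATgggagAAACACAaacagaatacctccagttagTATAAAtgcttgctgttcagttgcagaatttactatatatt
H2bc14, histone H2B, chr13:21721894-21722043, plus strand: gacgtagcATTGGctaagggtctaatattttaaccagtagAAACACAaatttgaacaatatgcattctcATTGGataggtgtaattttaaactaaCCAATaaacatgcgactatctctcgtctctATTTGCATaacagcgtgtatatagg
H3c10, histone H3, chr13:21717478-21717627, plus strand: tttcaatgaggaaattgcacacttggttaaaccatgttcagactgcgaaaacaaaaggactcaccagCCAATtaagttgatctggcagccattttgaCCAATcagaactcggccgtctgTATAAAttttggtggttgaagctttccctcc
H4c4, histone H4, chr13:23581418-23581567, plus strand: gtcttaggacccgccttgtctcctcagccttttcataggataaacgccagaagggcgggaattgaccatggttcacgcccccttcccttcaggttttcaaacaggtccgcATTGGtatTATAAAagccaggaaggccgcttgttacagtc

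Of the 56 histone genes, 51 matched an entry in the promoter table. In the 250 bases before the start, CCAAT was found in 43 of 51 (84.3%), against 34.5% of 27025 promoters of all genes. It was present in 6 of 6 H1, 13 of 13 H2A, 14 of 14 H2B and 7 of 7 H3 promoters, and in 3 of 11 H4 promoters. TATAAA was found in 26 of 51 (51.0%, against 13% of all promoters), in each of the 5 families. The octamer was found in 10 of 51 (19.6%, against 1.61%), 5 of 13 H2A and 5 of 14 H2B promoters and no other family. AAACACA was found in 9 of 51 (17.6%, against 6.22%), with 5 of 6 H1, 2 of 13 H2A and 2 of 14 H2B promoters. Many H2A and H2B genes are neighbours in the gene order. Whether neighbours share upstream bases was not checked, so the same site may be counted for both and the promoters may not be independent. These are matches of letters and say nothing of binding in these cells.

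Peaks lay at both ends of the cluster and left the middle nearly bare. H3K4me3 had 122 peaks over 177.4 kb in the Adriamycin list and 105 peaks over 218.6 kb in the untreated list. That is 50.8 and 43.8 peaks per Mb, where the rest of chromosome 13 had 13.3 in the Adriamycin list and 12.9 in the untreated list. Pol II had 54 peaks over 66.5 kb in the Adriamycin list and 78 over 92.6 kb in the untreated list. H3K27me3 had 56 peaks (46.5 kb) in the Adriamycin list and 66 (64.8 kb) in the untreated list. H3K79me2 was sparse, with 15 peaks (18.5 kb) in the Adriamycin list and 10 (16.6 kb) in the untreated list. It stood at 6.25 peaks per Mb in the Adriamycin list and 4.17 in the untreated list, below the 23.0 and 21.0 per Mb of those lists over the rest of the chromosome, while H3K4me3 and Pol II stood above theirs. hnRNP L had 0 of 1022 Adriamycin peaks and 0 of 1120 untreated peaks here. Taken as 3 divided by the list length, an approximate bound and not a Clopper-Pearson interval, those counts allow up to 0.294% of the Adriamycin list. For the untreated list the same bound is 0.268%. Lists this short do not show that the protein is absent.

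**Figure D1:**
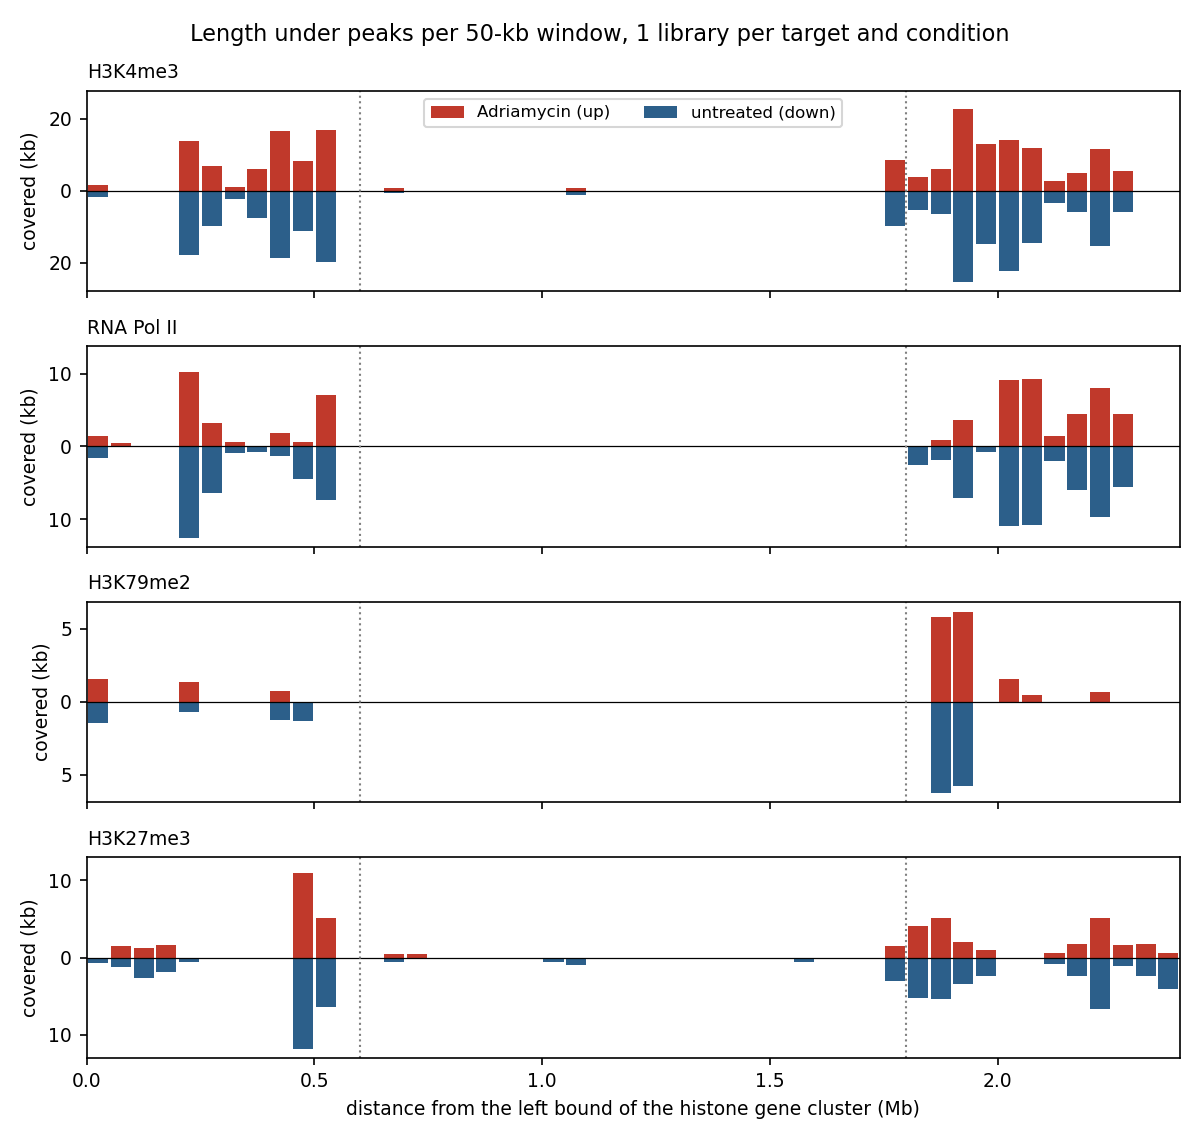
Length covered by peaks (kb) in 50-kb windows along the cluster, with Adriamycin above and untreated below each zero line, for H3K4me3, RNA Pol II, H3K79me2 and H3K27me3. The horizontal axis is the distance from the left bound in Mb, and dotted lines part the left end, the stretch between and the right end. Peaks stand at both ends, and RNA Pol II and H3K79me2 have none in the stretch between.

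The covered length in the Adriamycin list was 0.812 times that in the untreated list for H3K4me3, against 0.866 over the rest of chromosome 13 and 0.916 over the whole lists. For Pol II the ratio was 0.718, against 0.613 and 0.707. For H3K27me3 it was 0.718, against 0.735 and 0.746. For H3K79me2 it was 1.11, against 0.935 and 0.937. Pol II and H3K27me3 had ratios close to those of their whole lists, H3K4me3 had a lower one and H3K79me2 a higher one. The left end (0.6 Mb) and the right end (0.6 Mb) gave nearly the same ratios for H3K4me3 (0.805 left, 0.810 right) and for Pol II (0.714 left, 0.720 right). H3K79me2 had 0.804 on the left and 1.23 on the right. Without peaks of a score under 100, its ratio on the right was 0.989.

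Peaks carry a score from the authors' peak caller, 10 times the negative log10 of a p-value. Most of the highest peaks of a list stand at 3100, and scores of 3100 or more are called the ceiling below. Scores were read only within a list. In the Adriamycin list 3 of 54 Pol II peaks of the cluster (5.56%) were at the ceiling, against 0.453% of all peaks of that list. In the untreated list 31 of 78 were (39.7%), against 2.98%. The median Pol II score in the cluster was 969 in the Adriamycin list, whose own median was 101, and 1351 in the untreated list, whose own median was 121. For H3K4me3, 17 of 122 Adriamycin peaks (13.9%) were at the ceiling, below the 21.8% of the list. In the untreated list 33 of 105 were (31.4%), above the 24.0% of that list. The median H3K4me3 score in the cluster was 1110 in the Adriamycin list, whose own median was 335. It was 1586 in the untreated list, whose own median was 386. The 3 Adriamycin Pol II peaks at the ceiling were chr13:23851760-23854430, chr13:21870746-21872731 and chr13:23830444-23832153. Each overlapped an untreated Pol II peak. The widest of the untreated ceiling peaks were chr13:23851767-23856880, chr13:23835837-23839619 and chr13:23625401-23628645, and all 3 overlapped an Adriamycin peak.

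Most Pol II in the cluster sat on H3K4me3, and little on H3K79me2. Of the Pol II peaks, 46 of 54 in the Adriamycin list (85.2%, 72.9 to 93.4%) overlapped H3K4me3 of the same condition, against 37.2% of the whole list. In the untreated list 61 of 78 did (78.2%, 67.4 to 86.8%), against 35.1%. H3K79me2 was overlapped by 6 of 54 Adriamycin Pol II peaks (11.1%, 4.19 to 22.6%), against 41.6% of that list, and by 6 of 78 untreated ones (7.69%, 2.88 to 16.0%), against 45.6%. Read from H3K4me3, 6 of 122 Adriamycin peaks (4.92%, 1.83 to 10.4%) overlapped H3K79me2, against 33.9% of the list, and 4 of 105 untreated peaks (3.81%, 1.05 to 9.47%), against 38.4%. Pol II lay on 63 of 122 Adriamycin H3K4me3 peaks (51.6%, 42.4 to 60.8%), against 49.6% of the list. It lay on 50 of 105 untreated ones (47.6%, 37.8 to 57.6%), against 61.3%. Split H3K4me3 peaks count more than once in these shares. With H3K4me3 peaks within 1 kb merged, Pol II lay on 45.1% of 71 Adriamycin peaks and 47.5% of 80 untreated ones. H3K27me3 lay on 10 of 122 Adriamycin H3K4me3 peaks (8.20%, against 23.5%) and 13 of 105 untreated ones (12.4%, against 28.1%). H3K4me3 peaks with none of the 3 other signals numbered 49 of 122 in the Adriamycin list (40.2%, against 26.6%) and 44 of 105 in the untreated list (41.9%, against 16.5%).

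To follow single places across conditions, H3K4me3 peaks of both lists were joined where they overlapped. This gave 105 regions in the cluster, 49 in the left end, 7 in the stretch between and 49 in the right end, and 89 of them held a peak in both conditions. These 89 were sorted by the untreated Pol II peak on them. Pol II was at the ceiling at 30, below it at 17 and absent at 42. The 30 regions lay in 6 stretches with at most 30 kb from one region to the next, and 8 of them shared a Pol II peak with a neighbour, so they are not independent places. The sorting used untreated Pol II, so that Pol II in untreated cells at these regions is not a finding. All 31 untreated Pol II peaks at the ceiling touched one of the 30 regions. The regions were picked by such peaks, and the share of these peaks over the genome is not given, so this is not a trait of the cluster.

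At the 30 regions with ceiling Pol II, H3K79me2 was close to missing. It overlapped 3 of 30 in the Adriamycin list (interval 2.11 to 26.5%) and 1 of 30 in the untreated list (3.33%, 0.0844 to 17.2%). Over all such regions of the genome, 2259 of them, the shares were 84.6% in the Adriamycin list and 86.4% in the untreated list. Within 5 kb, H3K79me2 was found at 8 of 30 in the Adriamycin list (26.7%, 12.3 to 45.9%) and at 2 of 30 in the untreated list (6.67%, 0.818 to 22.1%), against 93.1% and 93.4% of all such regions. All 4 shares in the cluster were far under those over the genome. The peaks behind them were weak: with scores of at least 100 in all lists, 0 of 30 regions had H3K79me2 in either condition. The genome shares above are without that filter, and none under it is given. Genome-wide, 308 regions had ceiling Pol II and no untreated H3K79me2, and 29 of them (9.42%) lay in the cluster. They fell into 232 windows of 1 Mb. The window of chromosome 13 from 23000001 to 24000000 held 18, that from 21000001 to 22000000 held 7 and that from 22000001 to 23000000 held 4. The next was 96000001 to 97000000 of chromosome 3, also with 4, and no other window held more than 3.

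H3K27me3 was on 0 of the 30 in both lists (up to 11.6%), against 5.71% in the Adriamycin list and 7.75% in the untreated list over all regions with ceiling Pol II. Pol II was found again in the Adriamycin list at 30 of 30, against 99.2% of all such regions. At the 17 regions with weaker untreated Pol II, 9 kept a Pol II peak in the Adriamycin list (52.9%, 27.8 to 77.0%), against 78.1%. H3K79me2 was on 3 of these 17 in the Adriamycin list (17.6%, against 46.8%) and on 3 in the untreated list (17.6%, against 49.2%). At the 42 regions without untreated Pol II, 0 had Pol II in the Adriamycin list (up to 8.41%), against 9.42% of all such regions. H3K79me2 was on 0 of these 42 in both lists, against 11.5% in the Adriamycin list and 12.2% in the untreated list. H3K27me3 was on 6 of the 42 in the Adriamycin list (14.3%, against 43.2%) and on 8 in the untreated list (19.0%, against 48.6%). The sorting fixed the lack of untreated Pol II here. H3K79me2 and H3K27me3, which it did not use, lay under their shares over all such regions in both lists.

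**Figure D2:**
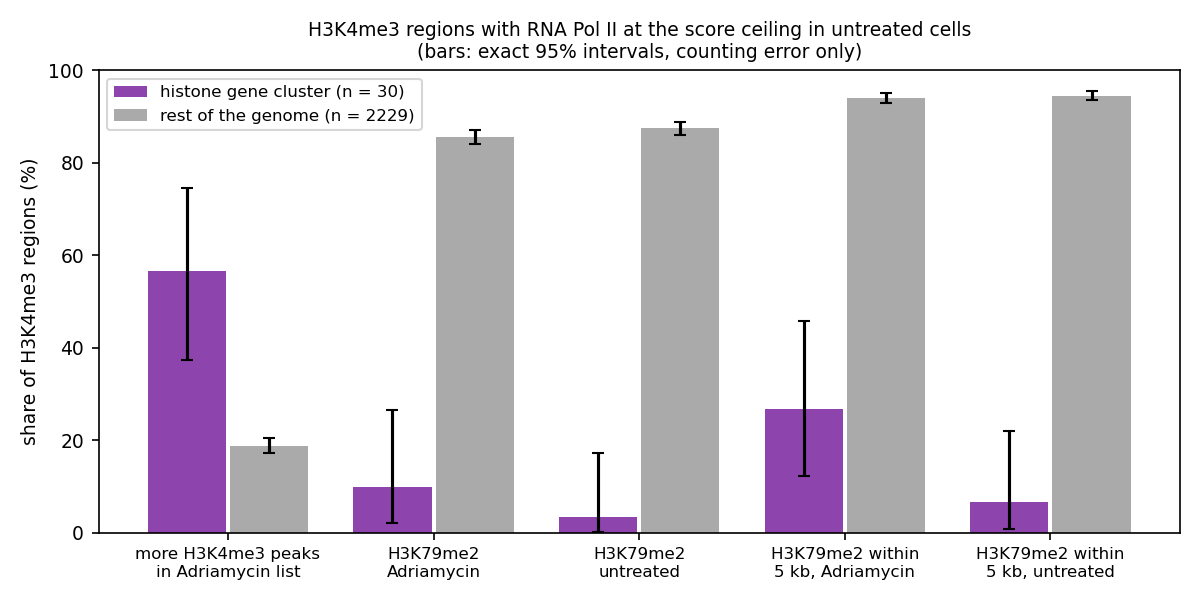
Share of H3K4me3 regions (%) with Pol II at the score ceiling in untreated cells that held more Adriamycin than untreated H3K4me3 peaks, or H3K79me2 on them or within 5 kb, in the histone gene cluster (left bars, n = 30) and in the rest of the genome (right bars, n = 2229). Error bars are exact 95% intervals of counting error. The cluster has the higher share in the first pair and the lower share in the other 4.

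Under ceiling Pol II, single untreated H3K4me3 peaks often corresponded to several Adriamycin peaks, though 13 of the 30 regions held 1 Adriamycin peak. The 30 regions held 55 Adriamycin peaks and 31 untreated peaks. More Adriamycin than untreated peaks were found at 17 of 30 (56.7%, 37.4 to 74.5%), against 19.3% of all regions with ceiling Pol II. The count was 0 of 17 at regions with weaker Pol II (up to 19.5%), against 8.32%, and 4 of 42 at regions without Pol II (9.52%, 2.66 to 22.6%), against 2.21%. Over all 89 regions it was 21 (23.6%), against 6.92%, while 1 had fewer Adriamycin peaks (1.12%), against 0.957%. Regions without Pol II thus also stood above their share over the genome, while the interval with weaker Pol II held its own. Wider regions can hold more peaks. Among regions with ceiling Pol II and 2 to 5 kb of untreated H3K4me3, the count was 13 of 18 (72.2%, 46.5 to 90.3%), against 15.9%. Among regions of any width with ceiling Pol II and no untreated H3K79me2 it was 17 of 29 (58.6%, 38.9 to 76.5%), against 13% of the 308 genome-wide. With H3K4me3 peaks of a list joined where at most 200 bp apart, the count was 7 of 24 (29.2%, 12.6 to 51.1%), against 9.82% of all regions with ceiling Pol II under the same joining. All 7 touched one of the 17, but 6 of the 7 were made by joining several of the 105 regions. Most of the splits counted before were closed by this joining, as 23 of the 25 gaps described below were 200 bp or less.

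The widest region, chr13:23621534-23629213, shows this. In the Adriamycin list 3 H3K4me3 peaks of 2609, 1906 and 1640 bp covered 6155 bp of it. In the untreated list 1 peak of 7680 bp, with a score of 3100, covered the whole. Pol II had 2 peaks there in each condition, of 1385 and 3128 bp in the Adriamycin list and of 2077 and 3245 bp in the untreated list. H3K79me2 covered 1025 bp at its right edge in the Adriamycin list and 0 bp in the untreated list. It lies in the stretch with most such regions, 57.8 kb from 23621534 to 23679324, where 10 regions held 18 Adriamycin and 10 untreated H3K4me3 peaks over 24.6 kb and 30.2 kb. Its 13 Adriamycin Pol II peaks covered 18.3 kb and its 13 untreated ones 21.7 kb. H3K79me2 covered 2.03 kb of this stretch in the Adriamycin list and 0 kb in the untreated list, and H3K27me3 0 kb in both. At the other end, the stretch from 21806737 to 21876464 (69.7 kb) held 8 regions with 16 Adriamycin and 8 untreated H3K4me3 peaks over 16.2 kb and 21.1 kb. H3K79me2 there covered 1396 bp in the Adriamycin list and 664 bp in the untreated list, all at 1 region.

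**Figure D3:**
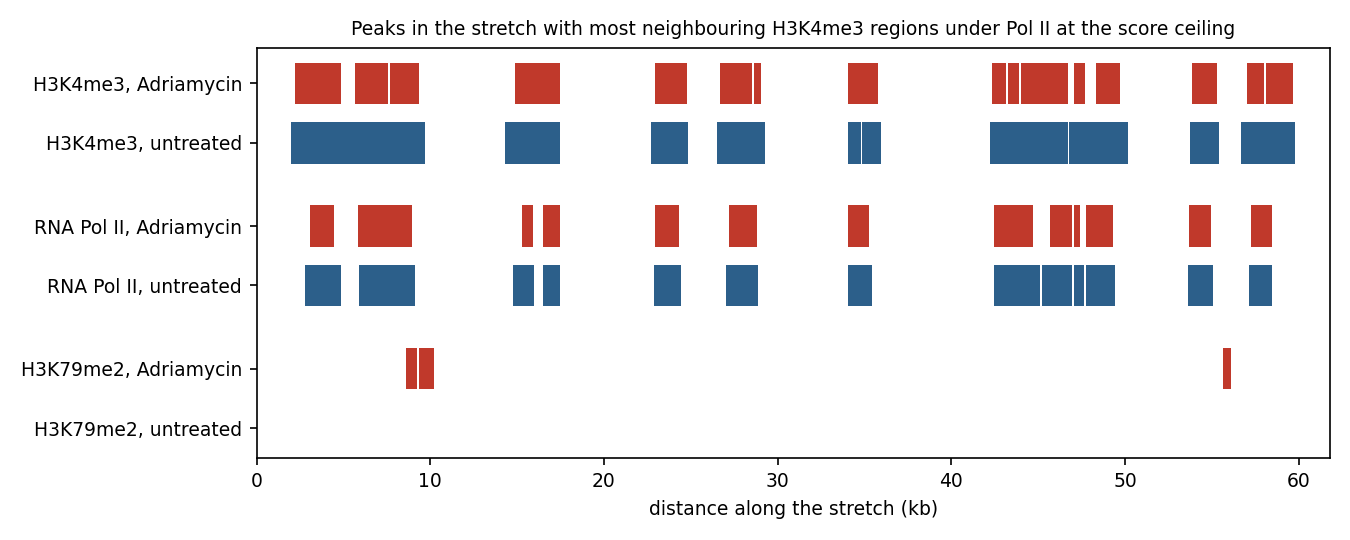
Peaks of H3K4me3, RNA Pol II and H3K79me2 in the 57.8-kb stretch with 10 H3K4me3 regions under ceiling Pol II, each drawn to scale along the stretch (distance in kb), with the Adriamycin row above the untreated row of each target. At the left edge 3 Adriamycin H3K4me3 peaks stand above 1 untreated peak 7680 bp wide, and H3K79me2 has 3 Adriamycin peaks and no untreated peak.

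The gaps were narrow. Under untreated peaks of the 30 regions, the Adriamycin list left 25 gaps, from 3 to 799 bp with a median of 105 bp, and 23 were 200 bp or less. Of the 25 gaps, 22 lay wholly under an Adriamycin Pol II peak and 18 wholly under an untreated one. By bases, 74.9% of the gap length was under Adriamycin Pol II and 61.9% under untreated Pol II. Of all bases in these regions, 61.7% were under Adriamycin Pol II and 72.7% under untreated Pol II. Gaps lie inside regions chosen for untreated Pol II, while these bases include the edges, so the shares are not like for like. One gap of 799 bp, in the widest region and with 0 bp under Adriamycin Pol II, weighs heavily in the gap values. Over the other 24 gaps, a choice made after seeing the values, 95.5% of the length was under Adriamycin Pol II and 77.8% under untreated Pol II. Leaving out that gap could only raise both shares. In the regions without Pol II there were 5 gaps, from 4 to 168 bp.

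More of the missing length lay at edges than in gaps. Of the 89 regions, 83 had a shorter covered length in the Adriamycin list, against 69.5% of all regions found in both conditions. At the 30 regions the Adriamycin peaks covered 70.6 kb and the untreated peaks 87.0 kb, a ratio of 0.812. All 30 had a shorter covered length in the Adriamycin list, against 80.2% of all regions with ceiling Pol II, and single ratios ran from 0.595 to 0.962. Of the 16.5 kb of untreated coverage not covered in the Adriamycin list, 3.69 kb lay in gaps and 12.8 kb at edges. The 17 regions with weaker Pol II had 34.8 kb in the Adriamycin list and 38.3 kb in the untreated list (ratio 0.908), and 14 of 17 were shorter in the Adriamycin list (against 71.2%). The 42 without Pol II had 70.7 kb in the Adriamycin list and 80.2 kb in the untreated list (ratio 0.882), and 39 of 42 were shorter there (against 64.6%). In the rest of the genome the ratios were 0.904 at ceiling Pol II, 0.916 at weaker Pol II and 0.951 without Pol II. Ratios under those of the rest of the genome were thus seen with and without Pol II. The single ratios of the 3 classes overlapped, from 0.586 to 1.08 with weaker Pol II and from 0.439 to 1.09 without.

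**Figure D4:**
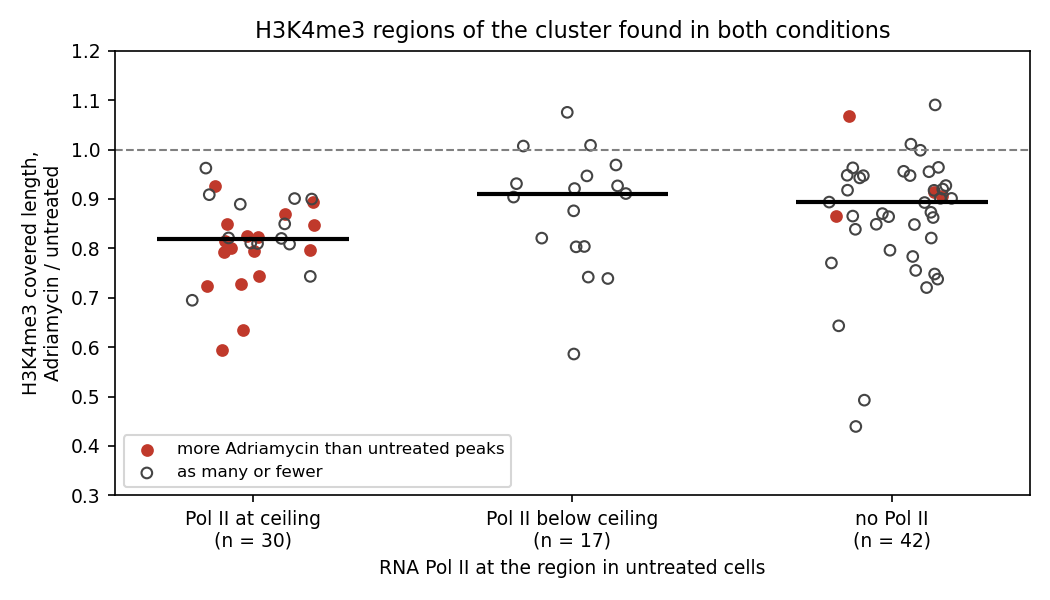
Ratio of Adriamycin to untreated H3K4me3 covered length at each of the 89 regions found in both conditions, by untreated Pol II at the region. Each point is 1 region, filled where the Adriamycin list held more peaks than the untreated list, and thick lines are medians. All 30 regions under ceiling Pol II lie below 1, with 17 filled points, and the 3 classes overlap.

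Not all dense H3K4me3 carried Pol II. The stretch from 21998070 to 22033630 (35.6 kb) held 10 regions in a row, with 10 H3K4me3 peaks over 16.2 kb in the Adriamycin list and 10 over 18.3 kb in the untreated list. It had no peak of any other target in either condition. Its H3K4me3 ratio was 0.884, and every region had 1 peak in each list. The stretch from 22107040 to 22125443 (18.4 kb) held 5 such regions (7.16 kb in the Adriamycin list and 8.55 kb in the untreated list), directly next to regions under ceiling Pol II. That neighbouring stretch, from 22125542 to 22136438, had 6 Adriamycin and 4 untreated H3K4me3 peaks at 4 regions.

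H3K4me3 peaks found in 1 condition only were mostly weak, here as in the rest of the lists, and the untreated share of them was near that of its whole list. Of the H3K4me3 peaks, 3 of 122 in the Adriamycin list (2.46%, 0.510 to 7.02%) had no untreated partner, against 15.8% of the list, and 13 of 105 in the untreated list (12.4%, 6.76 to 20.2%) had no Adriamycin partner, against 14.5%. The median score of peaks without a partner was 57.03 in the Adriamycin list, against 76.74 over the rest of that list. In the untreated list it was 77.35, against 78.4. The 3 Adriamycin ones had scores of 53.1 to 62.0, and 8 of the 13 untreated ones scored under 100. The strongest was chr13:23607979-23611716, 3738 bp wide with a score of 907.85, and the nearest Adriamycin H3K4me3 peak was 5802 bp away. It had no Pol II in either list. The others with a score of at least 100 and no Adriamycin peak within 1 kb were chr13:23579946-23581122 (254.34) and chr13:21957634-21958508 (121.03).

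For Pol II, 2 of 54 Adriamycin peaks (3.70%, 0.452 to 12.7%) had no untreated partner, against 26.1%, and 22 of 78 untreated peaks (28.2%, 18.6 to 39.5%) had no Adriamycin partner, against 48%. Pol II peaks that scored at least 100 and stood over 1 kb from any partner numbered 0 of 54 in the Adriamycin list, against 3.22% of that list, and 9 of 78 in the untreated list (11.5%), against 12%. The untreated share was near that of its whole list. The strongest was chr13:22072339-22074095 (score 689.03), 23015 bp from the nearest Adriamycin Pol II peak. The H3K4me3 region there, from 22072711 to 22074248, had 1390 bp covered in the Adriamycin list and 1538 bp in the untreated list. H3K27me3 covered 1328 bp of it in the Adriamycin list and 1421 bp in the untreated list, so this place bore both marks in both conditions. The next were chr13:23522539-23523049 (438.89), chr13:23443855-23444708 (353.82), chr13:21877849-21880613 (283.86) and chr13:23598957-23599706 (223.63). All of these but the one at 23443855 touched H3K4me3 regions found in both conditions. In all, 0 of the 105 H3K4me3 regions had Pol II in the Adriamycin list alone, against 3.74% of all regions, and 10 had it in the untreated list alone (9.52%), against 13.9%.

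H3K79me2 had its strongest peaks at 2 places in the right end, neither under ceiling Pol II. The highest was chr13:23511356-23515936 in the Adriamycin list and chr13:23510270-23516035 in the untreated list, both at the ceiling. The H3K4me3 region at its edge, from 23513936 to 23519448, kept its length, with 5378 bp covered in the Adriamycin list and 5332 bp in the untreated list, and had 1 peak in each. The other place, from 23451495 to 23460851, had 5.85 kb covered in the Adriamycin list and 6.24 kb in the untreated list. Partners were missing for 7 of 15 Adriamycin peaks (46.7%, 21.3 to 73.4%), against 18.0% of the list, and for 3 of 10 untreated peaks (interval 6.67 to 65.2%), against 19.0%. Of the 7 Adriamycin ones, 4 lay near regions with ceiling Pol II, at 23628109, 23628859, 23675186 and 23834875, with scores of 56.9 to 94.7. The nearest untreated H3K79me2 peak to each was 112 kb or more away. All 4 lay in the right end, where the ratio changed sides without such low scores.

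H3K27me3 formed small patches. None of its peaks here was at the ceiling, against 0.303% of the whole Adriamycin list and 0.772% of the whole untreated list. With shares that low, the lack of ceiling peaks is not a trait of the cluster. Joined over gaps of up to 3 kb and over both lists, H3K27me3 gave 40 patches, of which 6 were at least 5 kb long. These 6 had 29.3 kb covered in the Adriamycin list and 35.5 kb in the untreated list, and 5 of them had less in the Adriamycin list. Less H3K27me3 length was also seen over the whole lists (ratio 0.746). No share of such patches over the genome is given. The longest, from 22088608 to 22106953 (18.3 kb), had 13 Adriamycin peaks over 11.8 kb and 9 untreated peaks over 13.8 kb. The highest scores were at chr13:22074175-22076929 in the Adriamycin list (785.10) and chr13:22094702-22097854 in the untreated list (1279.84), both in the left end. Partners were missing for 12 of 56 Adriamycin peaks (21.4%, 11.6 to 34.4%), against 27%, and for 30 of 66 untreated peaks (45.5%, 33.1 to 58.2%), against 41.2%, both intervals holding the share of the whole list. With a score of at least 100 and no partner within 1 kb, the Adriamycin list had chr13:23881157-23882062 (118.07). The untreated list had chr13:23498910-23499423 (143.75), chr13:22644918-22645490 (124.29) and chr13:23874901-23875491 (114.04).

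The stretch between the ends (1.2 Mb) had no Pol II and no H3K79me2 in either condition. H3K4me3 had 7 peaks over 10.1 kb in the Adriamycin list and 7 over 11.5 kb in the untreated list, each with a partner. Of these, 5 lay within 40 kb of the right end, and the other places were chr13:22259900-22260642 and chr13:22674941-22676023. H3K27me3 had 3 peaks over 2.43 kb in the Adriamycin list and 8 over 5.73 kb in the untreated list. The longest run with no peak of any target reached from 22676024 to 23188783 (512.8 kb), and the next from 22315118 to 22644917 (329.8 kb).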

How the data were processed

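The authors deposited 1 peak list per library, with a score for each peak, on mm9. The submitters' processing notes name CASAVA 1.8.2 and MACS 1.4.1. In that caller the score is 10 times the negative log10 of a p-value, and the lowest deposited scores were 50, or 1e-05. The sources used here do not give read depth, input libraries or duplicate handling, so the sensitivity of each list is unknown. Covered length is the number of bases under peaks, clipped to the bounds. A partner overlaps by at least 1 bp in the opposite condition's list for that target. Percentages after "against" are of the whole list or of all regions of the same class. The ends and the stretch between were parted at 22200000 and 23400000. The rule for naming peaks took the 3 highest of each list, those scoring at least 100 with no partner within 1 kb (up to 5 a list) and the longest empty run, and part of these are printed. Members, bounds and rule were chosen with earlier results of these data known. Joined regions, Pol II classes, gaps, stretches and other peaks named were chosen after the values were seen. Overlap and joining were tested on simulated lists. Coordinates were not carried between builds. Software was Python 3.11.15 with pandas 2.3.3, numpy 2.4.6, matplotlib 3.10.9 and SciPy 1.17.1.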

Additional observations from a re-analysis of the deposited data

How the results depend on the processing

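Of 125 values under alternatives for 41 results, 102 stayed within 1.5 times the reported count or ratio, or within the interval of the reported share. Among the 102 are hnRNP L counts, which stay at 0 under any filter or merging. Also among them are ratios with peaks kept whole at the bounds, which equalled the reported ones. The ratio of H3K79me2 covered length in the right end turned to 0.989 with scores of at least 100. The H3K27me3 ratio of the stretch between was 0.227 with its bounds moved 100 kb inwards. With scores of at least 100, H3K27me3 had 28 Adriamycin and 32 untreated peaks, and H3K79me2 7 Adriamycin and 4 untreated. With peaks within 1 kb merged, H3K4me3 had 71 Adriamycin peaks, H3K27me3 31 Adriamycin and 42 untreated, and H3K79me2 9 Adriamycin. For peaks scoring at least 100 held against any peak, shares with no partner were 0% (Adriamycin) and 5.38% (untreated) for H3K4me3, 7.14% and 12.5% for H3K27me3, 14.3% and 0% for H3K79me2, and 0% and 16.4% for Pol II. The H3K4me3 Adriamycin share was also 0% where the longer list was trimmed by score to the shorter. With the score filter, the H3K79me2 shares rest on few peaks, 1 of 7 in the Adriamycin list and 0 of 4 in the untreated list. Whole-list shares under the filter or the trimming are not given. Whether these lower shares are particular to the cluster therefore cannot be told. The following alternatives were chosen after seeing the data. Joining H3K4me3 peaks within 200 bp gave more Adriamycin peaks at 29.2% (12.6 to 51.1%) of regions with ceiling Pol II, against 9.82% over the genome. Since 23 of the 25 gaps were 200 bp or less, it closed most of the splits counted without joining. Of the 7 regions with more Adriamycin peaks after joining, 6 were made of several of the reported regions, so the 29.2% is not a recount of the same splits. An untreated Pol II score of at least 1000 gave 17 of 34 (32.4 to 67.6%), against 14.7%. A score of at least 100 in all lists gave 46.7% (28.3 to 65.7%), against 15.8%, and equal list lengths 56.7% (37.4 to 74.5%), against 17.9%. H3K79me2 at these regions was found at 26.7% in the Adriamycin list within 5 kb, and at 0% in both lists with scores of at least 100. No share over the genome under that score filter is given. These filters leave fewer peaks, and the cause of the changed values was not tested. No paired analysis was possible because each target had 1 library per condition, and no library could be left out. Read depth is unknown, so a difference in sensitivity between the libraries of a target cannot be told apart from the treatment.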
